A study of Vitis vinifera with 45 samples.

Results

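The 150 transcripts described here were highest at the stage labelled DAF75 (75 days after flowering, DAF) in the berry skins of own-rooted scions, that is, of self-grafted and graft-free grapevines. The scion is Crimson Seedless, a red table grape, abbreviated CS. The transcripts were chosen among 29958 by a rule on TPM, a level scaled for transcript length and library size. For each graft type and stage, log2(TPM + 1) was averaged over 3 libraries, and the larger of the means at DAF45 and DAF105 was subtracted from the mean at DAF75. The smaller of this difference in CS/CS and in CS was the score of a transcript. A mean of at least 5 TPM over CS/CS and CS at DAF75 was required, which 13684 transcripts had, and the 150 with the highest score were kept.

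The series held 45 libraries in 15 groups of 3. The graft types were CS on each of 3 commercial rootstocks (CS/101-14, CS/110R and CS/SO4, called heterografts), CS grafted onto itself (CS/CS) and CS on its own roots without a graft (CS), each sampled at DAF45, DAF75 and DAF105. The scion of every group was Crimson Seedless, the rootstocks are interspecific hybrids of American vines, and the labels name no treatment. Each library came from pooled skins, so the spread between replicates is a spread between pools. The sample titles name the CS/CS libraries only Crimson, and that these vines were self-grafted is known from a note of the study. The labelled tissue, the skin of the berry, could not be checked against marker genes, because the identifiers of the transcripts are not paired with gene names in the tables used here. Libraries held 16387269 to 20765329 counts in total (median 18442527), and 87.6% of the counts above 0 were whole numbers.

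A grape berry starts as a hard, green and acidic fruit and then passes veraison, the onset of ripening, when it softens, takes up sugar and colours as anthocyanins build up in the skin. A transcript that is highest in the middle of this course is lower both in the young berry and in the ripe one, though not always low there. A rootstock gives the scion its root system, and water, mineral nutrients and hormones reach the berry through the graft union. No gene name, sequence or position could be assigned to the 150 transcripts, since 0 of the 29958 identifiers matched the 29591 genes of the reference table. The roles given below are therefore terms that the study itself attached to some identifiers, in lists that it chose on these samples. They are not independent evidence of a direction. The chromosome is the number after VIT in the identifier.

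In the libraries that chose them, the 150 transcripts had a median score of 0.996 on the log2 scale. The scores ran to 3.799 for VIT_05s0124g00660, and 74 transcripts had a score of at least 1. At the lower end, VIT_15s0048g02650 and VIT_14s0030g02240 had the last scores taken, 0.787 and 0.784, and VIT_06s0004g03500 and VIT_12s0028g02160 the first scores left out, 0.783 and 0.782. The values on both sides of this limit were thus close together. The mean level over CS/CS and CS at DAF75 ran from 5.42 TPM to 3078 TPM with a median of 30.6 TPM. It was under 10 TPM for 23 transcripts, from 10 to under 100 TPM for 95 and at least 100 TPM for 32. The mean at DAF75 was higher in CS/CS than in CS for 72 of the 150, and the difference to the other stages was the smaller one in CS/CS for 74 and in CS for 76. Of the other stages, DAF45 was the higher one for 120 transcripts in CS/CS and for 120 in CS. These values describe the choice and were not tested.

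The highest score belonged to VIT_05s0124g00660, which had 2.13, 0 and 0 TPM at DAF45, 58.7, 45.8 and 105.4 TPM at DAF75 and 5.41, 7.74 and 0.967 TPM at DAF105 in CS/CS. In CS it had 2.06, 2.92 and 1.05 TPM at DAF45, 97.5, 96.2 and 68.7 TPM at DAF75 and 0.822, 3.5 and 0 TPM at DAF105. Its libraries at DAF75 thus lay far above every other own-rooted library. VIT_18s0001g15330, the third by score, had 9.8, 6.16 and 3.44 TPM at DAF45, 65, 37.9 and 79.2 TPM at DAF75 and 9.06, 4.91 and 3.9 TPM at DAF105 in CS/CS and 37.8, 53.2 and 42.1 TPM at DAF45, 192, 158 and 165 TPM at DAF75 and 13.4, 12.4 and 15.3 TPM at DAF105 in CS. The second, VIT_14s0108g00550, had 34.6, 42.7 and 41.1 TPM at DAF75 in CS/CS and 58.9, 24.3 and 25.7 TPM in CS. The most abundant of the 150 was VIT_03s0063g02610, with 988, 982 and 812 TPM at DAF45, 2435, 3165 and 2391 TPM at DAF75 and 1000.0, 723 and 868 TPM at DAF105 in CS/CS. In CS it had 1300.2, 1208 and 1139 TPM at DAF45, 3494, 3867 and 3114 TPM at DAF75 and 969, 1117 and 1165 TPM at DAF105, and within each of these graft types all DAF75 libraries lay above all others. VIT_15s0046g01560 came next, with 1271, 1649 and 2735 TPM at DAF75 in CS/CS and 3726, 1665 and 2599 TPM in CS, a wider spread between replicates.

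**Figure D1:**
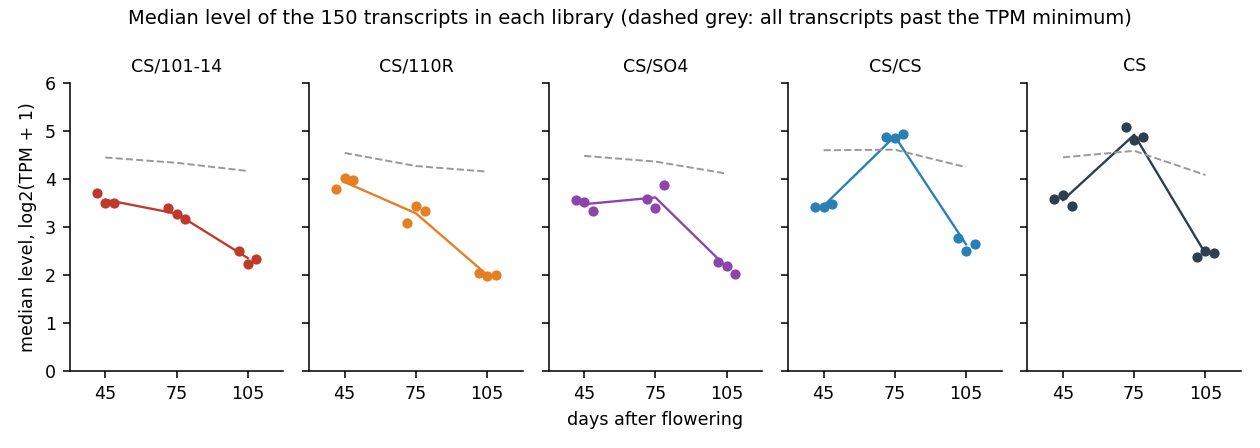
Median log2(TPM + 1) of the 150 transcripts in each of the 45 libraries (points), by graft type and days after flowering, with a line through the means of these medians and, dashed, the median of all 13684 transcripts past the TPM minimum. At DAF75 the heterografted libraries stand between 3.09 and 3.87, below the CS/CS and CS libraries, which chose the transcripts and stand between 4.81 and 5.09.

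The rule did not use the 27 heterografted libraries, and the same transcripts had another course there. Their median log2(TPM + 1) at DAF45, DAF75 and DAF105 was 3.65, 3.23 and 2.35 for CS/101-14, 3.81, 3.29 and 1.95 for CS/110R, and 3.41, 3.67 and 2.16 for CS/SO4. In CS/CS it was 3.34, 4.80 and 2.68, and in CS 3.46, 4.93 and 2.38. By these medians the heterografts were nearer to the own-rooted scions at DAF45 and DAF105 than at DAF75, where they were below them. The rule chose transcripts for high values in CS/CS and CS at DAF75, so a gap at that stage is in part built in. CS/110R differed from CS by a median of 0.30 at DAF45 and -0.30 at DAF105, against 0.15 and 0.09 over all transcripts past the minimum. Less RNA of a transcript in a bulk sample can mean fewer cells of a type or less RNA per cell, which cannot be told apart here. Per the paper, berries of all graft types but CS were in veraison at DAF75. In its comparison of whole expression profiles, the heterografts lay apart from CS/CS and CS at that stage. Differences at the same day are therefore mixed with ripening stage, which cannot be told apart from the graft here and was not tested. Over all 150 transcripts with no filter, the median difference of log2(TPM + 1) between DAF75 and DAF45 was -0.54 in CS/101-14, against -0.07 over the 13684 transcripts past the TPM minimum. The values were -0.61 against -0.24 in CS/110R and -0.12 against -0.08 in CS/SO4. The mean at DAF75 was below that at DAF45 for 98 transcripts of CS/101-14 (65.3%, against 53.6% of all past the minimum), 107 of CS/110R (71.3%, against 62.9%) and 81 of CS/SO4 (54%, against 54.6%). The share in CS/SO4 was thus that of the background. From DAF75 to DAF105 the course of the own-rooted scions was more common: the mean at DAF105 was below that at DAF75 for 122, 139 and 134 of the 150 in CS/101-14, CS/110R and CS/SO4 (81.3%, 92.7% and 89.3%, against 67.9%, 57.6% and 69.2% of all past the minimum). The median difference was -0.76 in CS/101-14, against -0.17 over all transcripts past the minimum, -1.05 against -0.10 in CS/110R, and -1.04 against -0.23 in CS/SO4. These medians are a description and were not tested.

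**Figure D2:**
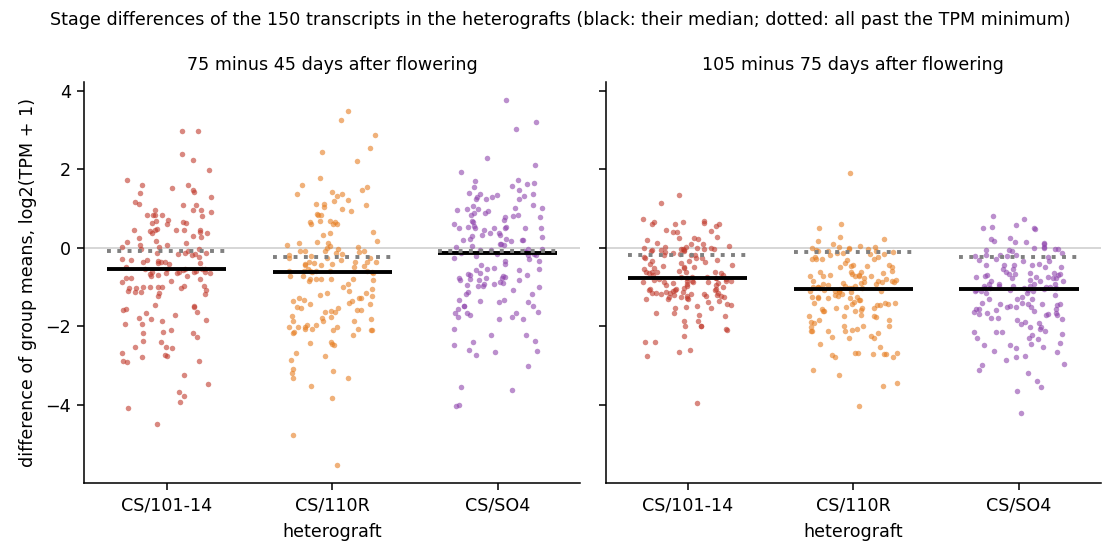
Difference of mean log2(TPM + 1) between stages for each of the 150 transcripts (points), by heterograft, with their median as a black line and the median of all 13684 transcripts past the TPM minimum as a dotted line. The medians between DAF75 and DAF45 are -0.54, -0.61 and -0.12 in CS/101-14, CS/110R and CS/SO4, and those between DAF105 and DAF75 are -0.76, -1.05 and -1.04.

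The highest of the 3 stage means was at DAF75 for 48 of the 150 transcripts in CS/101-14, where 34% of all transcripts past the minimum had it there. In CS/110R it was at DAF75 for 40 (background 20.9%) and in CS/SO4 for 68 (background 32.6%). In CS/101-14 and CS/110R these shares, 32% and 26.7%, were not far from the background, and DAF45 was the highest stage for 96 and 107 transcripts (backgrounds 49.3% and 54.7%). In CS/SO4, DAF45 was the highest stage for 79, a share of 52.7% near the background of 49.8%. In all 3 heterografts 27 transcripts, or 18%, were highest at DAF75 (background 13.8%), and 71, or 47.3%, were so in none (background 54.8%). All 3 libraries at DAF75 lay above all 6 libraries of the other stages for 31 transcripts in CS/101-14 (background 14.4%), for 26 in CS/110R (background 9.92%) and for 41 in CS/SO4 (background 16.1%). In the libraries of the rule, this held for 133 transcripts in CS/CS (background 16.9%) and 124 in CS (background 27.5%), from which nothing is read.

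Set beside CS at DAF75, the median difference of log2(TPM + 1) over the 150 was -1.62 for CS/101-14, -1.63 for CS/110R and -1.41 for CS/SO4, where all transcripts past the minimum had -0.21, -0.28 and -0.18. All 3 heterografted libraries lay below all 3 CS libraries for 131 transcripts in CS/101-14 (background 48.8%), 126 in CS/110R (background 52.1%) and 116 in CS/SO4 (background 45.3%). They lay above all CS libraries for 1, 3 and 2 transcripts (backgrounds 24.5%, 20.2% and 22.1%). CS/CS differed from CS by a median of -0.05, and its libraries lay below those of CS for 45 transcripts (background 27.1%) and above them for 33 (background 30.8%). At DAF45 the medians against CS were -0.01 for CS/101-14, 0.30 for CS/110R, 0.00 for CS/SO4 and -0.15 for CS/CS, and at DAF105 they were -0.06, -0.30, -0.19 and 0.07. The CS libraries at DAF75 are part of the rule, so all of these differences are descriptions of the choice and were not tested.

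Stages were compared within each heterograft by edgeR's quasi-likelihood test on the counts, over all transcripts that reached 10 counts in 3 or more of the 6 libraries. Calls needed a log2 fold change beyond 1 in either direction, with p-values adjusted over all tested transcripts (Benjamini-Hochberg) and kept to 0.05. Of the 150, 119 were tested in all 9 comparisons of the heterografts, 21 in some and 10 in none. At DAF75 against DAF45, 14 transcripts rose in CS/101-14 of 134 tested, where 13% of all transcripts tested rose. In CS/110R 20 of 136 rose (background 13.9%), and in CS/SO4 23 of 133 (background 12.8%). These shares were near the background. Lower at DAF75 than at DAF45 were 42 transcripts in CS/101-14 (background 18.1%), 49 in CS/110R (background 17.6%) and 34 in CS/SO4 (background 16.7%). In all 3 heterografts 8 of 129 rose (background 7.09%) and 21 fell (background 9.76%). VIT_05s0020g04780, named after its values were seen, was the only transcript that rose in 1 heterograft and fell in another. Its log2 fold change was 2.23 ± 0.64 in CS/110R and -1.95 ± 0.59 in CS/SO4. It is among the 17 transcripts, described below, that varied together between replicates, with an SD within groups of 0.93 on the log2 scale.

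More transcripts were lower at the next stage. At DAF105 against DAF75, transcripts that fell numbered 43 of 124 in CS/101-14 (background 5.3%), 76 of 124 in CS/110R (background 12.5%) and 72 of 122 in CS/SO4 (background 10.2%), and 31 of 120 fell in all 3 (background 3.34%). No transcript of the 150 was called higher in all 3 (background 1.93%). Only 2 rose in CS/101-14 (background 4.63%) and 2 in CS/SO4 (background 6.33%). In CS/110R edgeR and DESeq2 both called 0 higher (background 6.88%), with 2 transcripts at an unadjusted p under 0.05 in edgeR. A peak at DAF75, higher than at DAF45 and lower again at DAF105, was called for 7 of 123 transcripts in CS/101-14 (background 1.22%), 14 of 123 in CS/110R (background 2.75%) and 14 of 121 in CS/SO4 (background 2.26%). The 7 of CS/101-14 became 4 without replicate 1 and 4 without replicate 3. A transcript needs enough counts to be tested, and those that reached the filter through the stage where they are high could more easily be called, so the counts of tested transcripts are not counts of the 150.

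**Figure D3:**
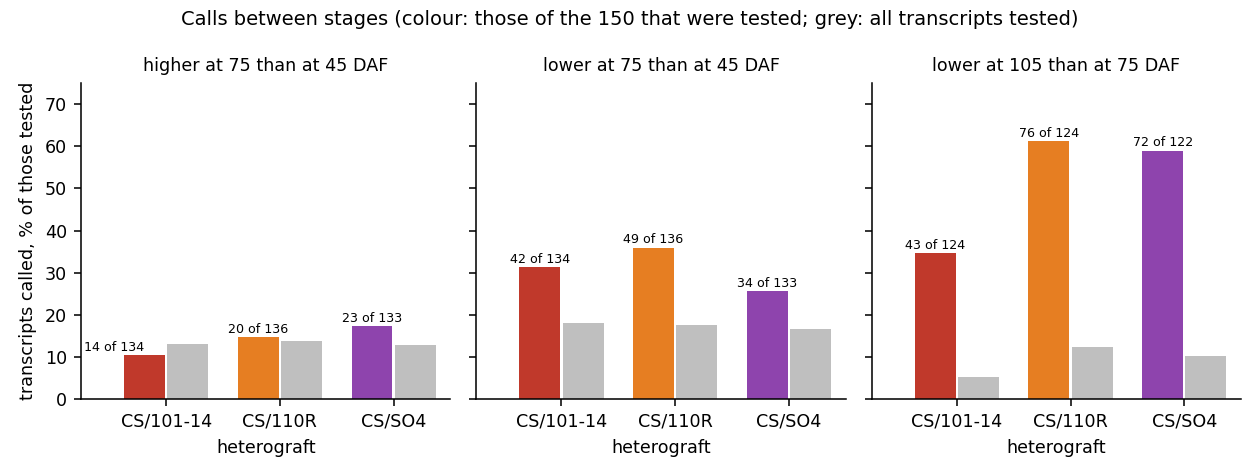
Percent of the tested transcripts of the 150 that edgeR called in each heterograft (coloured bars, with the number called of the number tested), beside the percent of all transcripts tested (grey bars), at DAF75 against DAF45 and at DAF105 against DAF75. The coloured bars of transcripts higher at DAF75, 14, 20 and 23 called, stand near the grey ones, and those of transcripts lower at DAF105, 43, 76 and 72 called, stand above them.

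A peak at DAF75 was called in all 3 heterografts for 4 transcripts of 119 tested in all (background 0.439%). The study's lists attach no term to any of them. The most abundant of the 150, VIT_03s0063g02610, had 1183, 1234 and 1197 TPM at DAF45, 2835, 2948 and 3092 TPM at DAF75 and 1254, 1203 and 1353 TPM at DAF105 in CS/101-14. In CS/110R it had 1098, 784 and 1333 TPM at DAF45, 2812, 2775 and 3066 TPM at DAF75 and 1121, 1078 and 1416 TPM at DAF105. The CS/SO4 libraries held 1063, 1221 and 1050.0 TPM at DAF45, 4065, 3332 and 2919.7 TPM at DAF75 and 1034, 1025 and 1192 TPM at DAF105. In each heterograft all libraries at DAF75 lay above those of both other stages. At DAF75 the heterografts overlapped CS/CS, while of them only CS/SO4 overlapped CS. Its log2 fold change at DAF75 against DAF45 was 1.25 ± 0.11 in CS/101-14 (SE, n = 3 against 3, edgeR adjusted p = 0.000314), 1.62 ± 0.19 in CS/110R (adjusted p = 0.000264) and 1.65 ± 0.17 in CS/SO4 (adjusted p = 0.000144). At DAF105 against DAF75 it fell by 1.04, 1.15 and 1.44 on the log2 scale.

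VIT_15s0107g00550 had the largest mean log2 fold change at DAF75 against DAF45 of the 4. Its levels were 7.7, 7.78 and 5.58 TPM at DAF45, 37.1, 38.8 and 33 TPM at DAF75 and 7.11, 4.79 and 3.34 TPM at DAF105 in CS/101-14. They were 4.03, 4.25 and 5.11 TPM at DAF45, 37, 21.9 and 35.6 TPM at DAF75 and 1.28, 1.29 and 3.84 TPM at DAF105 in CS/110R. In CS/SO4 they were 8.32, 6.19 and 4.26 TPM at DAF45, 72, 57.9 and 42.8 TPM at DAF75 and 3.63, 2.76 and 4.47 TPM at DAF105. No library of DAF75 overlapped one of another stage. The log2 fold change at DAF75 against DAF45 was 2.34 ± 0.18, 3.02 ± 0.26 and 3.23 ± 0.29 in CS/101-14, CS/110R and CS/SO4, and at DAF105 against DAF75 it fell by 2.64, 3.78 and 3.77, with adjusted p of at most 0.00108 in the 6 edgeR tests. CS/CS, with 16.6, 14.6 and 15.8 TPM at DAF45, 43.2, 28.2 and 40.6 TPM at DAF75 and 19.7, 7.7 and 10.4 TPM at DAF105, had a smaller step than CS, with 15.5, 18 and 20.5 TPM, 72.4, 62.9 and 74.1 TPM and 2.72, 5.36 and 4.11 TPM at these stages.

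VIT_11s0016g01220 was at 25.5, 19.2 and 29.9 TPM at DAF75 in CS/101-14, against 2.82, 2.2 and 1.86 TPM at DAF45. In CS/110R the values were 20.4, 23.1 and 28 TPM at DAF75 and 1.88, 3.12 and 2.22 TPM at DAF45. CS/SO4 had 22.3, 20.7 and 35.2 TPM at DAF75, against 11.1, 8.84 and 8.01 TPM at DAF45, which was a higher start than in the other two. It rose by 3.41 ± 0.23, 3.49 ± 0.22 and 1.49 ± 0.22 on the log2 scale in CS/101-14, CS/110R and CS/SO4 (edgeR adjusted p = 0.00017, 1.71e-05 and 0.000781). At DAF105 the heterografts had 2.01 to 6.61 TPM. VIT_02s0025g03540 had 22.4, 23.1 and 26.4 TPM at DAF75 in CS/101-14, 20.3, 17 and 17.7 TPM in CS/110R and 20.5, 9.65 and 21.4 TPM in CS/SO4, against 2.71 to 10.2 TPM over the 9 libraries at DAF45. Only the low replicate 2 of CS/SO4 at DAF75 came within the range of the earlier stage. It rose by 2.603, 1.62 and 1.53 on the log2 scale (adjusted p = 0.000484, 0.00205 and 0.00321). Its fall at DAF105 in CS/101-14 (-1.46, adjusted p = 0.0348) was no longer called without replicate 3 of DAF105 or without any 1 of the DAF75 libraries (adjusted p from 0.0539 to 0.0949).

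The other 4 transcripts that rose at DAF75 against DAF45 in all 3 heterografts, named after their values were seen, were VIT_03s0091g00230, VIT_15s0048g02540, VIT_17s0000g02770 and VIT_05s0077g00630. VIT_03s0091g00230 had 37.9, 22.9 and 67.6 TPM at DAF75 in CS/101-14, against 4.86, 17.7 and 8.33 TPM at DAF45. In CS/110R and CS/SO4 it had 20.0, 37.6 and 23.2 TPM and 9.81, 40.7 and 27.2 TPM at DAF75, against 1.07, 2.42 and 2.13 TPM and 2.48, 1.2 and 1.11 TPM at DAF45. It fell again at DAF105 in CS/101-14 and CS/110R, and was not called in CS/SO4 (adjusted p = 0.0773). VIT_15s0048g02540 had 56.6 to 93.1 TPM over the 9 libraries at DAF75 and 7.88 to 26.4 TPM at DAF45, with log2 fold changes of 3.07, 2.02 and 2.22. It was not called at DAF105, where the values were -0.43, -0.94 and 0.02. VIT_17s0000g02770 rose by 1.62, 1.42 and 1.38 and was not called at DAF105 in any heterograft. Of its counts above 0, 100% were not whole, so its level is uncertain. VIT_05s0077g00630 rose by 1.74, 1.16 and 1.40 and fell at DAF105 in CS/110R (-1.04) only. These transcripts thus shared the step at DAF75 with the own-rooted scions, and part of them stayed without a called fall.

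More transcripts went the other way, and some that were high at DAF75 in the own-rooted scions were almost absent at DAF75 in the heterografts. VIT_12s0035g00900, which the study lists under response to wounding and regulation of defense response, had 0, 0 and 0.0729 TPM at DAF75 in CS/101-14, against 17.2, 7.49 and 8.3 TPM at DAF45. In CS/110R it had 0.0742, 0.375 and 0.217 TPM at DAF75 and 28.1, 37.3 and 31.6 TPM at DAF45. CS/SO4 had 0, 0 and 0.0764 TPM at DAF75 and 11, 14.4 and 9.45 TPM at DAF45. Every heterografted library at DAF75 was thus under 1 TPM, while CS/CS had 13.9, 22.6 and 14.5 TPM and CS 24.1, 14.8 and 28.2 TPM at that stage. With at most 1 count in each library of CS/101-14 and CS/SO4 at DAF75, the level was at least 51.1-fold lower than at DAF45 in CS/101-14 and at least 52.1-fold lower in CS/SO4, measured against 3 counts per library. In CS/110R the log2 fold change was -6.94 ± 0.32 (edgeR adjusted p = 5.49e-06). The transcript reached the count filter there through DAF45, where it was high, which makes a call easier. At DAF105 it had 0 counts in 8 of the 9 heterografted libraries, in all 3 of CS and in 1 of CS/CS.

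VIT_18s0001g11490 had the same course at lower levels. It stood at 0.0729, 0 and 0 TPM at DAF75 in CS/101-14, against 3.9, 1.06 and 1.25 TPM at DAF45. For CS/110R the values were 0, 0 and 0.336 TPM at DAF75 and 9.27, 7.91 and 8.01 TPM at DAF45. It had 0 counts in CS/SO4 at DAF75, against 5.02, 1.25 and 2.26 TPM at DAF45. The level at DAF75 was at least 8.33-fold lower in CS/101-14 and at least 10.9-fold lower in CS/SO4, and the log2 fold change in CS/110R was -5.89 ± 0.69. This transcript, too, reached the count filter through DAF45. The own-rooted scions had 5.18, 3.88 and 8.91 TPM in CS/CS and 14.6, 11.8 and 7.99 TPM in CS at DAF75, and 0 at DAF105 in all 15 libraries of the 5 graft types.

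VIT_00s0203g00070, listed under cell differentiation, had 0.236, 0.422 and 0.109 TPM at DAF75 in CS/101-14 and 3.37, 3.63 and 1.93 TPM at DAF45. It had 0.166, 0.168 and 0.217 TPM at DAF75 in CS/110R and 7.47, 7.83 and 2.78 TPM at DAF45. In CS/SO4 there were 0, 0.0523 and 0.286 TPM at DAF75 and 4.2, 4.72 and 6.62 TPM at DAF45. Within each heterograft the stages did not overlap, and the log2 fold changes were -3.53 ± 0.51, -4.79 ± 0.52 and -5.46 ± 0.62 (edgeR adjusted p = 0.00185, 0.000185 and 0.000249). At DAF105 against DAF75 the transcript was under the count filter in each heterograft. It was thus tested here through DAF45, where it was high, which makes a call easier. CS/CS had 7.19, 8.03 and 10.7 TPM and CS 13, 18.3 and 13.7 TPM at DAF75. VIT_02s0087g00720, listed as a transmembrane receptor of the serine/threonine kinase type, a class that passes signals from the cell surface inward, had 0.388, 0.125 and 0.192 TPM at DAF75 in CS/101-14, 1.7, 1.19 and 1.28 TPM in CS/110R and 0.193, 0.247 and 1.21 TPM in CS/SO4. At DAF45 it had 11.9, 3.53 and 4.91 TPM, 12.6, 11.2 and 10.8 TPM and 6.67, 6.11 and 7.94 TPM in these heterografts. It fell by 4.76, 2.84 and 3.64 on the log2 scale (adjusted p = 0.0012, 4.19e-05 and 0.0008). In CS/101-14 and CS/SO4 this transcript was likewise under the filter at DAF105 against DAF75.

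VIT_16s0098g01170 is listed under regulation of transcription and sequence-specific DNA binding, as a transcription factor would be. At DAF75 its levels overlapped between the heterografts, with 1.57, 1.34 and 1.09 TPM in CS/101-14, 1.48, 1.05 and 1.81 TPM in CS/110R and 0.8, 1.4 and 0.837 TPM in CS/SO4. At DAF45 CS/110R stood apart with 99.7, 165 and 82.4 TPM, where CS/101-14 had 23.7, 5.56 and 5.88 TPM and CS/SO4 10.6, 4.19 and 2.39 TPM. Its log2 fold change was -3.09 ± 0.62, -6.12 ± 0.36 and -2.47 ± 0.58 in CS/101-14, CS/110R and CS/SO4 (edgeR adjusted p = 0.00655, 1.22e-05 and 0.00765). CS/CS reached 250.1, 225 and 418 TPM at DAF75 and CS 162, 45.4 and 58 TPM, so that CS was widely spread at that stage.

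VIT_16s0022g00670, which carries no term, also fell in all 3 heterografts. It had 137, 112 and 159 TPM at DAF45, 9.84, 9.12 and 8.24 TPM at DAF75 and 1.58, 0.736 and 0.554 TPM at DAF105 in CS/101-14. CS/110R had 127, 144 and 146 TPM at DAF45, 4.51, 22.8 and 12.6 TPM at DAF75 and 1.26, 0.527 and 0.838 TPM at DAF105. In CS/SO4 the levels were 328, 265 and 356 TPM at DAF45, 23.7, 7.41 and 34.6 TPM at DAF75 and 1.79, 1.11 and 2.79 TPM at DAF105. The stages did not overlap in any heterograft, each later stage lying below the one before. The log2 fold change at DAF75 against DAF45 was -3.91 ± 0.14, -3.21 ± 0.48 and -3.82 ± 0.50 in CS/101-14, CS/110R and CS/SO4 (edgeR adjusted p = 7.66e-05, 0.000797 and 0.000466), and it fell again at DAF105, by 3.04, 3.82 and 3.28. At DAF75 the own-rooted libraries had 75.1, 71.8 and 131 TPM in CS/CS and 346, 411 and 417 TPM in CS.

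VIT_15s0048g02650, among the lowest scores of the 150, had 2.12 to 6.12 TPM over the 9 heterografted libraries at DAF75, against 26.3 to 42.3 TPM at DAF45. Its log2 fold changes were -3.09, -3.57 and -3.24 in CS/101-14, CS/110R and CS/SO4. VIT_01s0026g01780, listed under plasmodesma, the channel that joins plant cells, had 2.48 to 4.84 TPM at DAF75 and 22.7 to 37.8 TPM at DAF45 over the same libraries. It fell by 2.81, 2.85 and 2.90 on the log2 scale. CS/CS had 57.6, 67.3 and 70.3 TPM of it at DAF75 and CS 62.4, 41.7 and 58.2 TPM. VIT_11s0016g04960, the fifth by score, had 0.879 to 7.95 TPM at DAF75, against 19.1 to 97.2 TPM at DAF45, with log2 fold changes of -3.27, -3.83 and -4.09. The adjusted p of these 9 edgeR tests was at most 0.00346.

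VIT_03s0063g00460, listed under transcription factor activity, was among the most abundant of the 150 and uneven between replicates. At DAF75 it had 41.2, 16.4 and 22.7 TPM in CS/101-14, 35.1, 23.1 and 31.2 TPM in CS/110R and 11.6, 23.4 and 19.4 TPM in CS/SO4, against 621, 968 and 868 TPM in CS/CS and 503, 386 and 553 TPM in CS. At DAF45 it had 71.6, 990.0 and 502 TPM in CS/101-14, 46.8, 380.4 and 72.1 TPM in CS/110R and 98.9, 139 and 131 TPM in CS/SO4. Only the CS/SO4 replicates were alike at that stage. Its log2 fold change was -4.39 ± 1.03 in CS/101-14 (edgeR adjusted p = 0.0116), -2.29 ± 0.76 in CS/110R (adjusted p = 0.0314) and -2.74 ± 0.25 in CS/SO4 (adjusted p = 9.29e-05). In CS/110R it was -0.81 without replicate 2 of DAF45, and the call was also lost without any 1 of the DAF75 libraries. In CS/101-14 the call was lost without replicate 2 or 3 of DAF75 (adjusted p = 0.0509 and 0.0513). With the replicate number as a block, adjusted p was 0.0804 in CS/101-14 and 0.115 in CS/110R.

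**Figure D4:**
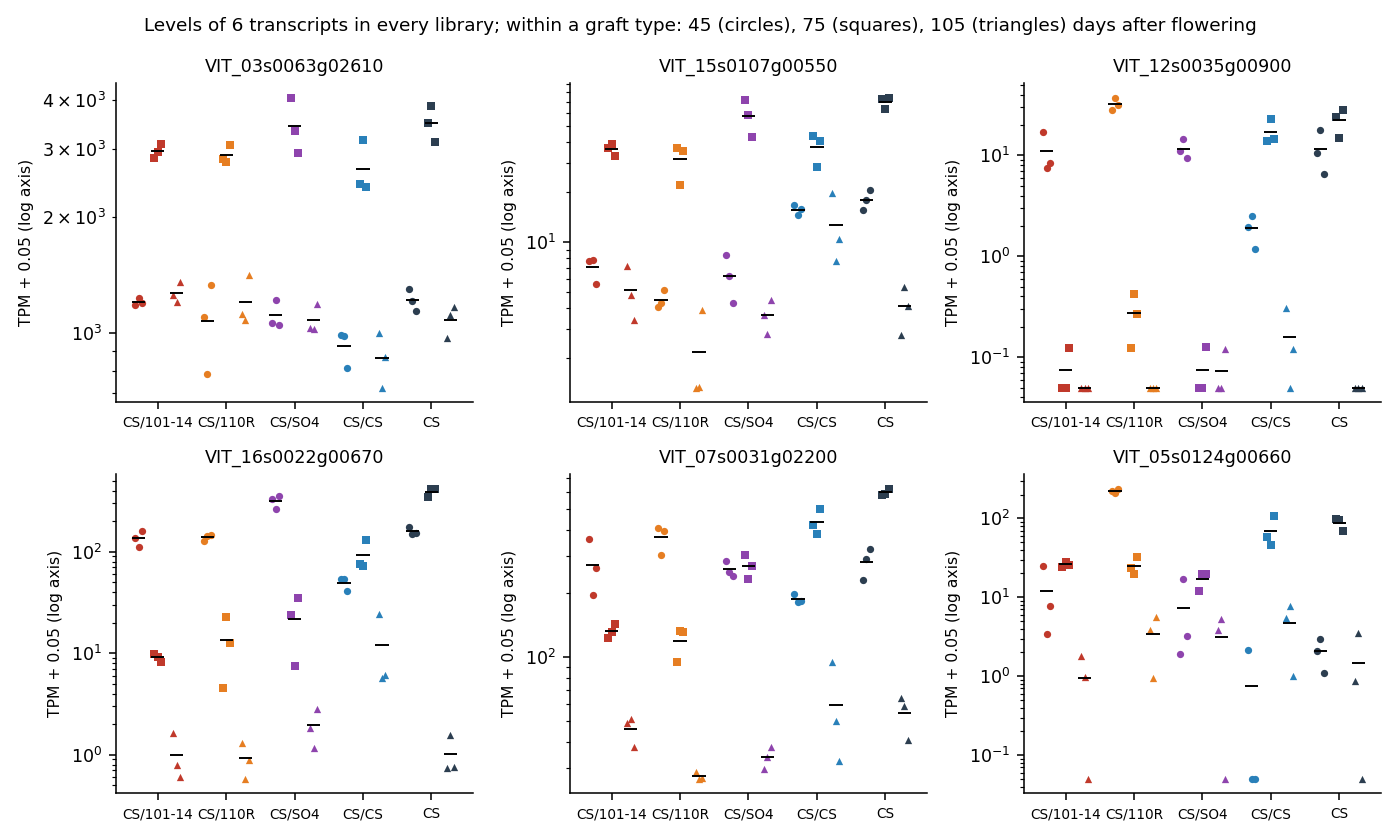
TPM of 6 of the transcripts in each of the 45 libraries on a log axis (0.05 TPM added so that libraries at 0 can be drawn), by graft type and stage; a point is a library and a bar the mean of its group. VIT_03s0063g02610 and VIT_15s0107g00550 have their highest mean at DAF75 in all graft types, while VIT_12s0035g00900 and VIT_16s0022g00670 have it at DAF45 in the heterografts and at DAF75 in CS/CS and CS.

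The transcripts with the highest scores had no common course in the heterografts. VIT_05s0124g00660, first by score, had 23.1, 19.6 and 32.5 TPM at DAF75 in CS/110R, against 223, 207 and 236 TPM at DAF45, and fell by 2.81 on the log2 scale (edgeR adjusted p = 4.12e-05). In CS/101-14 it had 24.3, 28 and 25.5 TPM at DAF75 and 25.1, 3.37 and 7.81 TPM at DAF45, a log2 fold change of 1.14 ± 0.57 that was not called (adjusted p = 0.132). CS/SO4 had 12, 19.9 and 19.8 TPM at DAF75 and 1.85, 16.9 and 3.17 TPM at DAF45, also not called (1.27 ± 0.70, adjusted p = 0.154). The heterografts were thus close together at DAF75, and CS/110R stood apart at DAF45. At DAF105 the transcript had 0 to 5.53 TPM and fell in all 3. In CS/101-14 that level was at least 9.15-fold lower than at DAF75.

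VIT_18s0001g15330, the third by score, was higher at DAF75 in each heterograft. It had 66.1, 61.3 and 86.7 TPM at DAF75 in CS/101-14, 83.4, 80.6 and 92.1 TPM in CS/110R and 115, 133 and 99.2 TPM in CS/SO4, and at DAF45 37.7, 42.4 and 48.2 TPM, 54.6, 55.3 and 51.5 TPM and 50.4, 43 and 50.5 TPM. All libraries at DAF75 lay above all at DAF45 in these heterografts. The log2 fold change was 1.30 ± 0.14 in CS/SO4, which was called, and 0.71 ± 0.18 and 0.86 ± 0.09 in CS/101-14 and CS/110R, which passed the p threshold (adjusted p = 0.0157 and 0.000175) but not that of size. At DAF105 it fell by 2.54, 4.17 and 3.28 on the log2 scale. VIT_12s0055g00310 had log2 fold changes at DAF75 against DAF45 of -0.56, 0.99 and 0.61, none of them called, and 53.3% of its counts were not whole, so its reads may be shared with another locus.

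VIT_15s0021g02680 fell in CS/110R (2.86, 8.98 and 4.58 TPM at DAF75, against 38.9, 45.8 and 41.7 TPM at DAF45) and in CS/SO4 (3.81, 1.25 and 7.32 TPM, against 35.5, 25.1 and 20.6 TPM). In CS/101-14, with 9.23, 6.55 and 4.63 TPM at DAF75, against 25.8, 2.27 and 8.99 TPM at DAF45, it was not called. VIT_13s0019g04910 fell in CS/101-14 (-1.66) and in CS/110R (-1.45) but had 26.8, 20.1 and 26 TPM at DAF75 in CS/SO4, against 32.6, 21.6 and 21.2 TPM at DAF45, a log2 fold change of -0.01 ± 0.19. VIT_11s0016g00330 fell in CS/110R (-1.84, adjusted p = 0.00711), and had log2 fold changes of 0.88 in CS/101-14 and -0.99 in CS/SO4. In the libraries of the rule it was far higher in CS/CS, with 126, 129 and 119 TPM at DAF75, against 10.01, 2.64 and 9.06 TPM in CS. VIT_03s0091g01100 was not called at DAF75 against DAF45 in any heterograft (-0.35, -0.67 and 0.00). VIT_14s0108g00550 reached at most 26.7 TPM in a heterografted library, had 0 counts in all 3 of CS/110R at DAF75, and was under the count filter in every comparison.

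Among the most abundant transcripts, VIT_15s0046g01560 spread widely within groups. At DAF75 it had 467, 498 and 854 TPM in CS/101-14, 211, 544 and 645 TPM in CS/110R and 1429.9, 975 and 1152 TPM in CS/SO4. At DAF45 it had 3299, 576 and 1154 TPM, 1091, 369.5 and 4491 TPM and 1480.1, 844 and 808 TPM in these heterografts. The stages overlapped in each of them, and none of the 3 comparisons was called (adjusted p = 0.0851, 0.0799 and 0.479). At DAF105 it fell in CS/SO4 to 91.5, 91.4 and 29 TPM (-3.86 ± 0.41 on the log2 scale, adjusted p = 0.000193). VIT_18s0001g08250 had 155 to 234 TPM over the heterografted libraries at DAF75, against 759, 634 and 819 TPM in CS/CS and 318, 291 and 288 TPM in CS. It was not called at DAF75 against DAF45 and fell by 1.11, 1.46 and 1.45 at DAF105.

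VIT_07s0031g02200 and VIT_07s0031g02210 follow each other in the table, and their identifiers place them on the same scaffold of chromosome 7. The first had 123, 132 and 144 TPM at DAF75 in CS/101-14, against 359.8, 195 and 263 TPM at DAF45. In CS/110R it had 94.8, 133 and 132 TPM and 409, 304 and 395 TPM at these stages. CS/SO4 overlapped between the stages, with 303, 235 and 269 TPM at DAF75 and 286, 251 and 242 TPM at DAF45. Its log2 fold changes were -1.02 ± 0.17, -1.43 ± 0.15 and 0.09 ± 0.13 in CS/101-14, CS/110R and CS/SO4, of which the first and second were called. The neighbour, VIT_07s0031g02210, was not called (-0.49, -0.23 and 0.83), with 509, 320.3 and 289.9 TPM at DAF75 in CS/SO4, against 211, 233 and 222 TPM at DAF45. Both were highest at DAF75 in the own-rooted scions, the first with 422, 379.5 and 497 TPM in CS/CS and 583, 589 and 622 TPM in CS, the neighbour with 399, 379 and 481 TPM and 679.8, 759 and 706 TPM.

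Few transcripts were higher at DAF105 than at DAF75. VIT_18s0089g01030 was called in CS/101-14, with 21.4, 13 and 26 TPM at DAF105, against 13.5, 10.1 and 10.4 TPM at DAF75, and in CS/SO4, with 7.59, 6 and 5.47 TPM, against 2.76, 1.9 and 5.74 TPM. The libraries of CS/SO4 did not overlap but for 5.74 TPM in replicate 3 at DAF75. The log2 fold changes, 1.001 ± 0.27 and 1.11 ± 0.38, were hardly above the threshold (edgeR adjusted p = 0.0253 and 0.0393). The call in CS/101-14 was lost in DESeq2, under another normalization, with no filter, in a fit of all heterografts, with the replicate block, and without replicate 1 or 3 of DAF105 or replicate 2 or 3 of DAF75. That in CS/SO4 was lost in the fit of all heterografts and without any of 5 of its 6 libraries. The other called ones, named after their values were seen, were VIT_18s0001g11680 in CS/101-14 (1.28, adjusted p = 0.0211) and VIT_02s0087g00640 in CS/SO4 (1.02, adjusted p = 0.00919). Without replicate 1 of CS/101-14 at DAF75, the number of transcripts called higher in that heterograft was 7.

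The heterografts were also compared with each other at DAF75. Between CS/101-14 and CS/110R, 0 of 126 transcripts were called higher in CS/101-14 (background 0.628%, edgeR, 4 at an unadjusted p under 0.05, 1 called by DESeq2) and 3 lower (background 1.12%, 24 at an unadjusted p under 0.05). Between CS/101-14 and CS/SO4, 1 of 127 was higher (background 0.805%, 5 at an unadjusted p under 0.05) and 6 were lower in CS/101-14 (background 0.879%, 46 at an unadjusted p under 0.05). Between CS/110R and CS/SO4, 1 of 128 was higher (background 0.736%, 10 at an unadjusted p under 0.05) and 3 were lower in CS/110R (background 0.485%, 27 at an unadjusted p under 0.05). Few transcripts were called, but the shares called lower in CS/101-14 and CS/110R than in CS/SO4, 4.72% and 2.34%, were above the background. Without 1 library, the 6 lower in CS/101-14 than in CS/SO4 were 4 to 9, and the 3 lower in CS/110R than in CS/SO4 were 0 to 3. The share of 2.34% thus rests on calls that single libraries can remove. Several calls were lost without single libraries, mostly at a similar fold change.

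VIT_18s0001g06840 stood out in CS/110R, with 63.5, 68 and 74.8 TPM at DAF75, against 22.7, 11.2 and 18 TPM in CS/101-14 and 12.9, 16 and 20.0 TPM in CS/SO4. The ranges did not overlap. The log2 fold change of CS/101-14 over CS/110R was -2.06 ± 0.21 (edgeR adjusted p = 0.00325), and that of CS/110R over CS/SO4 was 2.17 ± 0.13 (adjusted p = 0.00249). Both calls were kept under every alternative run. All 3 heterografts stayed below CS/CS, with 632, 722 and 417 TPM, and CS, with 169, 88.8 and 142 TPM.

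The receptor kinase transcript VIT_02s0087g00720 was lower in CS/101-14 than in CS/110R (-2.58 ± 0.47 on the log2 scale, adjusted p = 0.0204), at 0.388, 0.125 and 0.192 TPM, against 1.7, 1.19 and 1.28 TPM. VIT_18s0001g08870 had 2.12, 1.49 and 1.08 TPM in CS/101-14 and 3.75, 12.2 and 6.87 TPM in CS/110R (-2.32 ± 0.44, adjusted p = 0.0221). Both calls were lost without single libraries: the first without replicate 2 or 3 of CS/101-14 (-2.29 and -2.45, adjusted p = 0.0502 and 0.0603), the second without any library but replicate 1 of CS/110R (-1.84 to -2.60, adjusted p from 0.05 to 0.0729). The neighbours VIT_04s0008g03990 and VIT_04s0008g04000 had 16.8, 19.9 and 22.2 TPM and 12.7, 12.6 and 18 TPM in CS/101-14, against 66.5, 50.7 and 66.3 TPM and 55.7, 43.6 and 51.9 TPM in CS/SO4. Both were lower in CS/101-14 than in CS/SO4 (log2 fold changes of -1.66 and -1.81, edgeR adjusted p = 0.00467 and 0.00467), with no overlap of libraries.

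VIT_05s0049g00270 had 5.36, 3.39 and 4.39 TPM in CS/101-14 and 3.62, 6.96 and 6.96 TPM in CS/110R, against 13, 12.4 and 14.8 TPM in CS/SO4. It was called lower than CS/SO4 in both (-1.60 ± 0.17 and -1.12 ± 0.21, adjusted p = 0.00527 and 0.0344), the second of which was lost without any 1 of the 6 libraries (-0.90 to -1.25, adjusted p from 0.0371 to 0.0845) and with the replicate block (adjusted p = 0.0612). Of its counts, 84.4% were not whole, so the level is uncertain. VIT_06s0009g01990 had 1.03, 2.09 and 2.35 TPM in CS/110R and 5.62, 5.1 and 5.77 TPM in CS/SO4 (-1.51 ± 0.26, adjusted p = 0.0257), a call lost in the joint fit, with the block (adjusted p = 0.0577) and without 4 of the 6 libraries (-1.47 to -1.72, adjusted p from 0.0588 to 0.068). VIT_07s0031g02200 was lower in CS/110R than in CS/SO4 (-1.09 ± 0.14, adjusted p = 0.0127), which was lost without replicate 1 or 3 of CS/110R or replicate 1 of CS/SO4 (-0.96 to -1.14, adjusted p from 0.0255 to 0.0537). VIT_18s0089g01030, at 13.5, 10.1 and 10.4 TPM in CS/101-14 and 2.76, 1.9 and 5.74 TPM in CS/SO4, was higher in CS/101-14 (1.71 ± 0.37, adjusted p = 0.0394), and the call was lost with the block (adjusted p = 0.0651) and without any library but replicate 3 of CS/SO4 (1.42 to 1.795, adjusted p from 0.0609 to 0.129).

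Whether the step from DAF45 to DAF75 itself differed between heterografts was tested by an interaction term, which was chosen after the data were seen. Of 139 transcripts tested, 20 differed between CS/101-14 and CS/110R (background 5.8%), 14 of them with the larger value in CS/101-14 and 6 with the smaller. Between CS/101-14 and CS/SO4, 7 of 140 differed (background 0.701%), 1 larger and 6 smaller in CS/101-14. Between CS/110R and CS/SO4, 21 of 141 differed (background 8.52%), 4 larger and 17 smaller in CS/110R.

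The study attached a term to 18 of the 150 transcripts. The terms are transcription or DNA binding (VIT_03s0063g00460, VIT_16s0098g01170 and VIT_01s0026g01550), receptor kinases (VIT_02s0087g00720 and VIT_11s0016g02430), auxin mediated signaling (VIT_05s0062g01120 and VIT_09s0002g03410), response to chitin, a wall component of fungi (VIT_03s0091g00690 and VIT_13s0067g01070), calcium ion binding (VIT_01s0010g03040 and VIT_17s0000g02100) and plasmodesma (VIT_01s0026g01780 and VIT_08s0056g01290). Single transcripts carry response to wounding (VIT_12s0035g00900), cell differentiation (VIT_00s0203g00070), phospholipase activity (VIT_07s0141g00360), acid-amino acid ligase activity (VIT_01s0150g00300) and potassium ion leak channel activity (VIT_19s0015g00320). Of the 18, 17 were tested at DAF75 against DAF45 in each heterograft. Of these, 11 fell in CS/101-14 (background 18.1%), 10 fell in CS/110R (background 17.6%) and 7 fell in CS/SO4 (background 16.7%), and edgeR and DESeq2 both called 0 higher in each, with 0, 0 and 1 at an unadjusted p under 0.05 in edgeR. Of all tested transcripts of the 150, 42 of 134, 49 of 136 and 34 of 133 fell. At DAF105 against DAF75, 1 of 14 fell in CS/101-14 (background 5.3%), 10 of 15 in CS/110R (background 12.5%) and 8 of 14 in CS/SO4 (background 10.2%), and of all tested of the 150, 43 of 124, 76 of 124 and 72 of 122 fell. The lists were chosen by the study on these samples, so that these counts are no independent evidence, and several lists are cut short in the copy used here, so the transcripts without a term are not known to lack these roles. The paper names regulation of transcription and response to carbohydrate stimulus among terms of transcripts upregulated in all 3 heterografts at DAF75. VIT_03s0063g00460, VIT_01s0026g01550, VIT_03s0091g00690 and VIT_13s0067g01070, listed under these terms, were below CS there, as most of the 150 were. The rule chose transcripts for high values in CS at DAF75, so this direction is in part built in. Their differences of log2(TPM + 1) ran from -4.69 to -1.54 over the 3 heterografts. Nothing about the terms is read from these differences, and their reason was not tested.

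The transcripts listed under response to chitin were among the most abundant. VIT_03s0091g00690 had 81.3, 35.6 and 57.6 TPM at DAF75 in CS/101-14, against 133, 857 and 479.6 TPM at DAF45. In CS/110R it had 66.2, 38 and 59.2 TPM and 106, 285 and 124 TPM at these stages. For CS/SO4 the values were 83.3, 97.4 and 75.3 TPM and 170.0, 179 and 137 TPM. All heterografted libraries at DAF75 lay far below CS/CS, with 602, 775 and 779 TPM, and CS, with 521, 394 and 543 TPM. It fell in CS/101-14 (-3.17 ± 0.75, edgeR adjusted p = 0.0124) and CS/110R (-1.45 ± 0.41, adjusted p = 0.0166), while the difference in CS/SO4 was below the threshold of size (-0.90 ± 0.14). VIT_13s0067g01070 had 93 to 200.3 TPM over the heterografted libraries at DAF75, against 598, 715.2 and 649 TPM in CS/CS and 475, 580.4 and 552 TPM in CS. It was called in CS/101-14 alone (-1.26 ± 0.40, adjusted p = 0.0339), with -0.64 in CS/110R, while CS/SO4 had 0.14, and the interaction test gave adjusted p = 0.499, 0.132 and 0.198 for the differences between heterografts.

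The other transcripts with a term were of lower abundance or less changed. VIT_09s0002g03410, listed under auxin mediated signaling, the pathway of a hormone that is high in young fruit, had 6.62, 7.54 and 5.2 TPM at DAF75 in CS/101-14, 4.2, 10.6 and 8.43 TPM in CS/110R and 4.88, 6.98 and 3.83 TPM in CS/SO4, against 7.26 to 23.1 TPM over the 9 libraries at DAF45. It fell by 1.30 and 1.14 on the log2 scale in CS/101-14 and CS/110R and was not called in CS/SO4 (-0.83). VIT_05s0062g01120, of the same term, was called in none at this step (-0.64, -0.39 and -0.38). The potassium channel transcript VIT_19s0015g00320 had 5.73, 5.3 and 5.87 TPM at DAF75 in CS/101-14, against 23.3, 35.2 and 28 TPM at DAF45. It fell there (-2.39 ± 0.23, edgeR adjusted p = 0.000441) and in CS/SO4 (-1.34 ± 0.33, adjusted p = 0.00854), and at DAF105 it fell in all 3 heterografts. The receptor kinase transcript VIT_11s0016g02430 fell in CS/110R (-1.75), and so did VIT_01s0026g01550, listed under DNA binding (-1.05). The phospholipase transcript VIT_07s0141g00360 was called in CS/101-14 alone (-2.14), but the interaction test did not call its change different between heterografts (adjusted p = 0.0624, 0.145 and 0.558). VIT_01s0150g00300, the acid-amino acid ligase transcript, was called in none at DAF75 against DAF45 and fell at DAF105 in CS/110R (-3.94) and CS/SO4 (-3.80). VIT_08s0056g01290, listed under plasmodesma and autophosphorylation, was called in none of the 6 stage comparisons.

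Some of the 150 varied together between libraries of the same group, which was noticed after the values were seen. The deviations of VIT_03s0063g00460 from its group means correlated with those of 16 other transcripts at a Pearson's r of 0.71 to 0.93 over the 45 libraries, with 0.7 taken as the minimum. Libraries are shared between the transcripts, and no p is given. The 17 include both transcripts listed under response to chitin, both of calcium ion binding, the phospholipase, VIT_18s0001g06150, and the neighbours VIT_07s0031g00710 and VIT_07s0031g00720. Of the 17, 4 had more than 50% of their counts not whole. Their SD within groups had a median of 0.95 on the log2 scale, against 0.33 for the other 133. The 17 were picked on these same deviations, so part of this contrast, and of that between the means below, is built in. At DAF45 their mean log2(TPM + 1) was 3.95, 7.95 and 7.07 in the libraries of CS/101-14, 3.34, 5.08 and 3.99 in those of CS/110R and 4.72, 4.93 and 4.86 in those of CS/SO4. CS/CS had 3.76, 5.36 and 4.83, and CS had 5.26, 7.003 and 4.06. At this stage replicates of a group thus differed by up to 4.004, and CS/SO4 was even. At DAF75 they were 4.91, 4.10 and 4.27 for CS/101-14, 4.59, 3.95 and 4.32 for CS/110R and 4.74, 4.59 and 4.66 for CS/SO4, below CS/CS with 6.22, 7.12 and 6.98 and CS with 6.65, 6.49 and 6.70. The other 133 differed between replicates of a group by 0.04 to 0.40 in their mean.

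**Figure D5:**
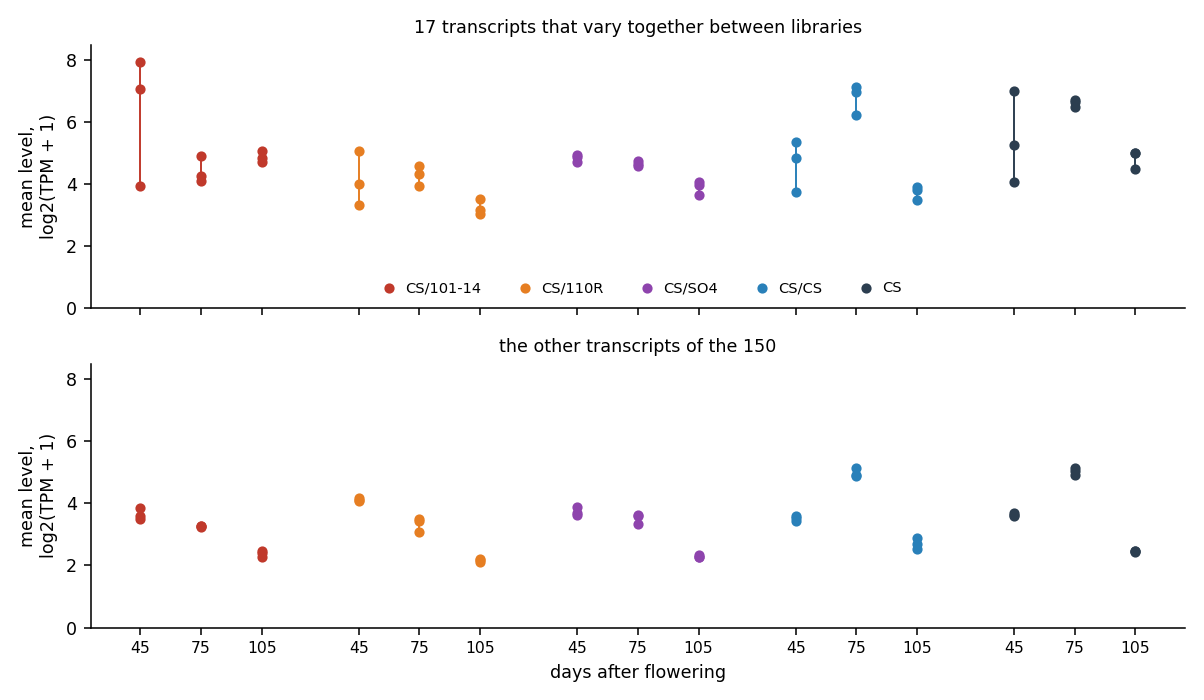
Mean log2(TPM + 1) of the 17 transcripts that varied together and of the other 133 in each library, by graft type and stage; a point is a library and a line joins the libraries of a group. At DAF45 the 17 spread from 3.95 to 7.95 in CS/101-14, while the replicates of the other 133 differ by at most 0.40 in each group. The 17 were chosen for varying together, so part of this contrast is built in.

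Replicates 2 and 3 of CS/101-14 at DAF45, where the 17 were high, had the lowest total counts of the series, and the part of this in the result was not tested. Of the 17, 7 of 16 tested fell at DAF75 against DAF45 in CS/101-14 (background 18.1%), and of the others 35 of 118, or 29.7%. For CS/110R it was 2 of 15 (background 17.6%), and 47 of 121 of the others, or 38.8%. For CS/SO4 it was 3 of 16 (background 16.7%), and 31 of 117 of the others, or 26.5%. In CS/110R and CS/SO4 the 17 were thus near the background. They were chosen on their spread in these libraries, which bears on whether they can be called. Without replicate 2 of CS/101-14 at DAF45 the number of the 150 that fell in CS/101-14 was 34, and without replicate 3 it was 32, in place of 42. VIT_18s0001g06150 shows the spread. At DAF75 it had 231, 133 and 186 TPM in CS/101-14, 232, 93.8 and 157 TPM in CS/110R and 322, 213 and 228 TPM in CS/SO4, and at DAF45 39.2, 1267 and 567 TPM, 12.2, 65.2 and 39.4 TPM and 91.7, 101 and 95.6 TPM. The replicates of CS/101-14 at DAF45 were the least alike. It rose in CS/110R (2.26 ± 0.60, edgeR adjusted p = 0.0128) and CS/SO4 (1.44 ± 0.18, adjusted p = 0.000355), and was not called in CS/101-14 (-1.87 ± 1.07, adjusted p = 0.177). Without replicate 1, 2 or 3 of CS at DAF45 the rule chose 143, 122 and 128 of the 150 again. The mean of the 17 was 7.003 in replicate 2. Whether their spread bears on these numbers was not tested.

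Of the 150, 14 stand in 7 pairs within 3 steps of each other in the order of the table, with the same scaffold code. Besides the pairs named, these are VIT_06s0061g01200 with VIT_06s0061g01230, VIT_11s0052g01280 with VIT_11s0052g01300, VIT_12s0055g00290 with VIT_12s0055g00310, and VIT_18s0001g06150 with VIT_18s0001g06170. Counts that are not whole can come from reads shared between loci, and 11 of the 150, or 7.33%, had more than 50% such counts, where 8.82% of all transcripts past the TPM minimum did. Among them are both transcripts of the VIT_11s0052g01280 pair (97.8% and 91.1%) and both of the VIT_12s0055g00290 pair (55.6% and 53.3%). VIT_18s0001g06170 and VIT_17s0000g02770 (100% each) are also among them, and the levels of all these transcripts are uncertain. The 10 transcripts tested in no comparison, chosen by the count filter alone, were VIT_14s0108g00550, VIT_04s0008g02730, VIT_09s0002g02860, VIT_01s0010g03040, VIT_00s0274g00020, VIT_06s0061g01200, VIT_08s0007g04620, VIT_13s0019g01760, VIT_08s0040g02270 and VIT_18s0072g00130. They were not tested, but 5 of them had a lower bound on a stage difference, measured against 3 counts per library. This bound, like every other given here, divides the mean of the higher stage by that floor. It makes no allowance for the spread between replicates and is a description. VIT_18s0072g00130 was at least 4.25-fold lower at DAF75 than at DAF45 in CS/110R and at least 2.57-fold lower in CS/SO4. VIT_01s0010g03040 was at least 3.42-fold lower in CS/SO4, VIT_04s0008g02730 at least 2.86-fold lower in CS/101-14 and VIT_06s0061g01200 at least 2.63-fold lower in CS/110R. VIT_13s0019g01760 was at least 2.35-fold lower at DAF105 than at DAF75 in CS/101-14. VIT_07s0104g01440, named after its values were seen, was at least 70.7-fold lower at DAF75 than at DAF45 in CS/110R, and at least 16.4-fold and 10.7-fold lower in CS/101-14 and CS/SO4.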

How the data were processed

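Berry skins of 5 graft types at 3 stages gave 45 RNA-seq libraries. Per the paper's methods, the authors trimmed reads with fastp, aligned them with HISAT2 to the 12X grapevine genome, used StringTie for assembly and took read counts from HTSeq. The deposited tables hold estimated counts per transcript, 87.6% of those above 0 being whole, and TPM from the authors. What made some counts fractional is not given in the sources used here. All columns were mapped to samples, with 0 left over. Totals of 16387269 to 20765329 counts set the precision.

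The members and lists were chosen with earlier results of these data known. CS/CS and CS libraries chose the transcripts and were given as values only. Heterografted libraries were tested with edgeR 4.0.16 (quasi-likelihood, TMM, R 4.3.3) on counts rounded to whole numbers, over those with 10 or more counts in 3 or more libraries, and calls needed a log2 fold change beyond 1 in either direction at an adjusted p of up to 0.05, adjusted over all transcripts tested. P-values measure the spread between pools of skins. Alternatives were DESeq2 1.42.0, RLE normalization, no filter, 1 fit of 27 libraries, the replicate number as a block, leaving out libraries, and, for the rule, a pseudocount of 0.1 in place of 1, minimums of 1 and 10 TPM and CPM. Transcripts were named by fixed rules: the 10 highest scores, the 10 most abundant, those with a peak in all 3 heterografts, the 10 with the largest fall in all 3, those higher at DAF105 in the most heterografts, and up to 3 per direction and pair of heterografts. The steps were tested on simulated data. Python 3.11.15, numpy 2.4.6, pandas 2.3.3 and matplotlib 3.10.9 made the summaries and figures. Comparisons with CS/CS or CS were not tested, and enrichment was not run.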

Additional observations from a re-analysis of the deposited data

Results flagged for a closer look

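For 10 of the transcripts named above, the change at DAF75 against DAF45 differed between heterografts in edgeR's interaction test, in 16 comparisons of a pair, which were chosen after the data were seen. Each value is the difference of the log2 fold changes of a pair, with its SE, over 12 libraries. Between CS/101-14 and CS/110R it was 3.94 ± 0.59, adjusted p = 0.0066 for VIT_05s0124g00660, 2.72 ± 0.59, adjusted p = 0.0224 for VIT_11s0016g00330 and 3.02 ± 0.81, adjusted p = 0.0425 for VIT_16s0098g01170. For VIT_18s0001g06840 it was -2.18 ± 0.33, adjusted p = 0.00659. Between CS/101-14 and CS/SO4 it was -1.84 ± 0.33, adjusted p = 0.0323 for VIT_04s0008g03990 and -1.99 ± 0.31, adjusted p = 0.0254 for its neighbour VIT_04s0008g04000. VIT_05s0049g00270 had -2.00 ± 0.28, adjusted p = 0.0188, VIT_07s0031g02200 had -1.10 ± 0.22, adjusted p = 0.0412 and VIT_13s0019g04910 had -1.64 ± 0.28, adjusted p = 0.0287. VIT_11s0016g01220 had 1.93 ± 0.33, adjusted p = 0.0287, the only one of these with the larger value in CS/101-14. Between CS/110R and CS/SO4 it was -1.75 ± 0.35, adjusted p = 0.00719 for VIT_05s0049g00270, -4.07 ± 0.70, adjusted p = 0.00336 for VIT_05s0124g00660 and -1.50 ± 0.20, adjusted p = 0.00098 for VIT_07s0031g02200. VIT_11s0016g01220 had 2.01 ± 0.33, adjusted p = 0.0025, VIT_13s0019g04910 had -1.42 ± 0.34, adjusted p = 0.0162 and VIT_16s0098g01170 had -3.63 ± 0.84, adjusted p = 0.0144. No group had enough libraries for a test of single outlying libraries.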

How the results depend on the processing

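Counts of the 150 called at DAF75 against DAF45 stayed within 1.5 times under all 66 alternatives, as did those lower at DAF105 than at DAF75 under all 33 and the number the rule shares with its alternatives under all 22 (122 to 148 of 150 without 1 library, 138 with a pseudocount of 0.1, 138 at 1 TPM, 127 at 10 TPM, 123 with CPM). Small counts moved. Higher at DAF105 than at DAF75 in CS/101-14 were 2, with 1 in DESeq2, 1 with RLE, 1 with no filter, 0 in 1 fit of 27 libraries, 1 with the replicate block, and 0 to 7 without 1 library. In CS/SO4 they were 2, with 1 in 1 fit of 27 libraries and 1 to 3 without 1 library. Higher in CS/101-14 than in CS/110R were 0, with 1 in DESeq2 and 0 to 1 without 1 library, and lower were 3, with 5 in DESeq2 and 1 to 6. Higher in CS/101-14 than in CS/SO4 was 1, with 0 under the replicate block and 0 to 1 without 1 library, and lower were 6, with 12 in DESeq2, 10 in 1 fit of 27 libraries and 4 to 9. Higher in CS/110R than in CS/SO4 was 1, with 2 in DESeq2, 2 in 1 fit of 27 libraries and 1 to 4 without 1 library, and lower were 3, with 5 in DESeq2 and 0 to 3. Called peaks in CS/101-14 were 7, with 4 to 7 without 1 replicate. The cause of these moves was not tested. Of 704 alternatives for 67 values of named transcripts, 648 kept direction and call, 56 kept the direction and lost the call, 44 of these without 1 library, and 0 reversed. The replicate block changed 6 of these calls. Same-numbered libraries correlated at -0.257 to 0.182, and the main tests did not pair them. In CS/101-14 at DAF105 against DAF75 every library correlated best with its own number. The values there were 0.134, 0.157 and 0.086, against at most 0.044 for other numbers, so a weak pairing in that comparison is not excluded. In no other comparison did every library correlate best with its own number. Depth limits transcripts with few counts, 10 of which were not tested.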
